A study of Oryctolagus cuniculus with 6 samples.

Results

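Slowly frozen rabbit blastocysts were compared with untreated blastocysts of the same age on 3 of the 6 arrays of the series, which were taken by their label. Each array carried RNA of frozen embryos in one dye and RNA of untreated control embryos in the other, so an array gives 1 ratio of frozen over control for every probe. All embryos were New Zealand White rabbit blastocysts aged 6 days, and 100 ng of total RNA was labelled per extract. Before freezing, embryos had passed through rising steps of dimethyl sulfoxide of 5 min each, up to 1.5 M. They were cooled at 1 °C per min to -7 °C, where ice was seeded by hand, then at 0.3 °C per min to -35 °C, and were plunged into liquid nitrogen. After thawing they had been transferred into recipient females and were recovered as viable day 6 embryos, while the controls had been neither frozen nor transferred, per the labels. Freezing, thawing and transfer therefore cannot be told apart in these ratios, and embryos that did not survive to day 6 are outside the comparison. The other 3 arrays set vitrified embryos against untreated controls. Per the labels, arrays of the same replicate number carry the same control source name. Whether that name stands for the same extract is not stated. How many embryos went into an extract is not given in the sources used here.

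Slow freezing lets ice grow outside the embryo, which draws water out of the cells and raises the salt around them, and the permeating cryoprotectant limits the damage. The day 6 rabbit blastocyst is a large fluid-filled sphere shortly before it attaches to the uterus. Its outer layer, the trophectoderm, pumps fluid and will form the placenta, the epiblast will form the body, and the hypoblast beneath it spreads as endoderm that secretes the serum-type proteins later made by yolk sac and liver.

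The cell types of a blastocyst were present in the control RNA. All 6 trophectoderm markers with a probe were well above background on all 3 control channels, among them GATA2, GATA3, TFAP2C and the keratins KRT8 and KRT19. The epiblast markers POU5F1 and DNMT3B were also well above background on all 3. Of the 4 hypoblast and yolk sac markers with a probe, APOA1 and GATA4 were, and of the 4 vessel and fibroblast markers VWF alone was. The summed signal of the 4 blood markers was at 12.10, 12.11 and 11.44 (log2) in the control channels of arrays 1, 2 and 3 and at 15.31, 13.13 and 12.08 in the frozen channels. The beta globin HBB2 was at +3.60, +1.25 and +0.76 and the alpha globin HBA at +2.33, +0.47 and +0.53 (log2 ratio), and PTPRC, the marker of white blood cells, was not well above background in any control channel. The uterine secretion SCGB1A1 was at +1.25, +2.01 and +0.78, and the fitted values of its 10 probes ran from 0.69 to 1.51. WFDC2, the other uterine marker with a probe, was at +0.38, +0.79 and -0.80. The summed signal of both was 11.52, 10.36 and 10.93 in the control channels and 11.98, 11.41 and 10.39 in the frozen channels. Over the 9 measured blood cell genes the median log2 ratio was +0.14, with 6 above 0, and over the 10 uterine genes it was +0.03, with 6 above 0; none of either was called. Vitrified embryos read +3.61 ± 0.67 for HBB2, +2.33 ± 0.32 for HBA and +2.03 ± 0.32 for SCGB1A1. HBB2, HBA and SCGB1A1 passed the test in neither treatment, and their part in the results below was not tested. Array 1 lay farther from the other frozen arrays than those from each other, with correlations across probes of -0.057 with array 2, 0.283 with array 3, and 0.424 between arrays 2 and 3. Arrays 1 and 2 shared a slide, array 3 lay on the other, and array 2 had the dyes swapped.

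A small number of probes passed the test. The fitted value is the log2 ratio of frozen over control with a term for the dye, and a probe was called at an adjusted p (limma, Benjamini-Hochberg over all tested probes) under 0.05. Of 30761 tested probes 57 were called (0.185%), 27 higher (0.0878%) and 30 lower (0.0975%), with changes between 0.77 and 2.22 on the log2 scale. The called probes with a symbol covered 18 of 8134 genes (0.221%), 11 higher (0.135%) and 7 lower (0.0861%). Every called probe kept its sign on each of the 3 frozen arrays, which the choice by the test on these arrays favours. The medians were 1.06, 1.09 and 0.91 on arrays 1, 2 and 3 for the probes that rose, and -0.87, -1.14 and -1.09 for those that fell. With median centring in place of loess 33 probes were called, 8 higher and 25 lower. The call depended on single arrays: 1, 0 and 0 probes passed without frozen replicate 1, 2 or 3, the last 2 with 1090 and 2525 probes at an unadjusted p under 0.05, and 513 passed without vitrified replicate 1, and 3 each without vitrified replicate 2 or 3. With the slide as a covariate 0 passed, with 3372 probes at an unadjusted p under 0.05 against 4070. All 57 called probes kept their sign there, which their choice on the same arrays favours.

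**Figure D1:**
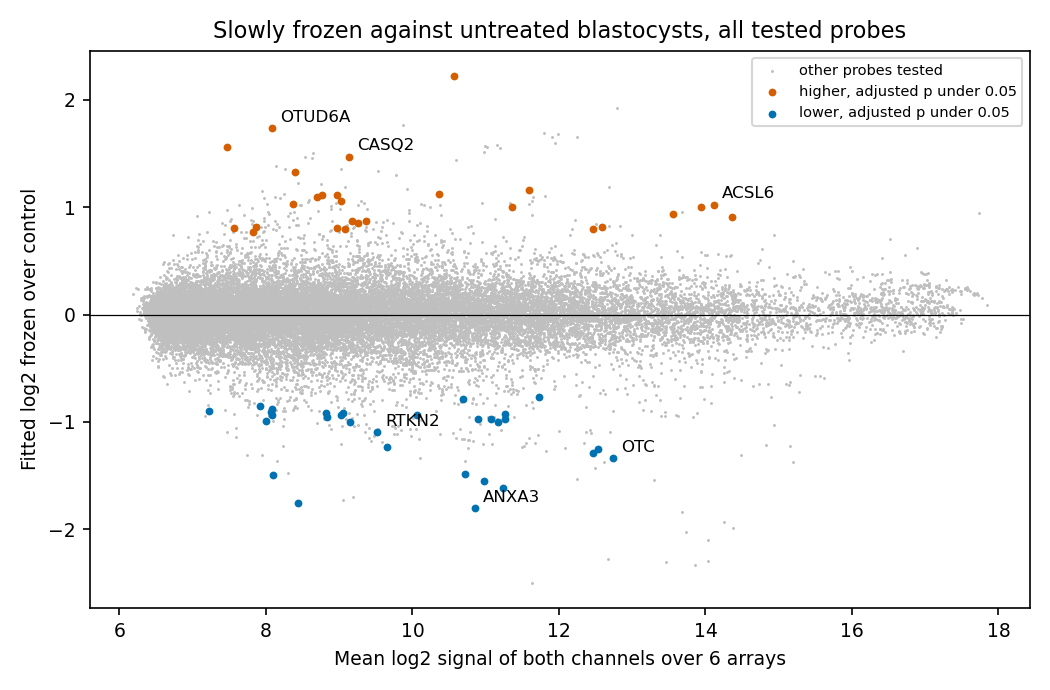
Fitted log2 ratio of frozen over control (vertical axis) against the mean log2 signal of both channels over the 6 arrays (horizontal axis), 1 point per tested probe. The 27 probes that rose are orange, the 30 that fell are blue, and 6 genes are labelled at the probe that stands for them; called probes occur over most of the range of signal.

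The sequences of the probes behind the main differences are given here, 5′ to 3′ as the array files hold them, with the files' coordinates, whose genome build is not given in the sources used here. Capitals mark the stretch that all the tested probes named for that line share, so that a reader can see how far such probes are separate measurements. The ANXA3 probe is shown with its overlap with a neighbouring probe, the APOA2 probe with that of 4 others, and the last with that of 4 others of its transcript. OTUD6A and the 2 unnamed probes A_04_P034922 and A_04_P102787 are shown in full without a comparison.
ANXA3, chr15:71766787-71766846, minus strand: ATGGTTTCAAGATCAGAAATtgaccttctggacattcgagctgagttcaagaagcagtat
APOA2, chr13:31761810-31761869, plus strand: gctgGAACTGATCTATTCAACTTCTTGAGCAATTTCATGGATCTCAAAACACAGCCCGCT
A_04_P102787, chr12:99901844-99901903, minus strand: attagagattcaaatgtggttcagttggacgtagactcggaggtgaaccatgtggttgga
OTUD6A, chrX:48624883-48624942, plus strand: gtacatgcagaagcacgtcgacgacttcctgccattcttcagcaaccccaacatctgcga
A_04_P034922, no coordinates in the files: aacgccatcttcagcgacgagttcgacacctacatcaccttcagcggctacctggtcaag
A_04_P076262, chr9:36528082-36528141, plus strand: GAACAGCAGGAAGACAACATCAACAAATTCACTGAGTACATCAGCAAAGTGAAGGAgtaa

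Among the called genes that fell, ANXA3 had the largest change. ANXA3 is an annexin, a protein that binds membranes when calcium is present. Its control signal was 11.10, 12.06 and 11.53 (log2) on arrays 1, 2 and 3, and the frozen signal was 10.02, 9.66 and 9.88. Each frozen value lay below every control value. Such gaps between the groups, here and for genes below, were not counted over all probes. The test chose the genes on the same signals, so the gaps are no further support. The ANXA3 ratios were -1.08, -2.39 and -1.65, and the fitted value of -1.80 ± 0.20 (SE, n = 3 arrays, adjusted p = 0.0423) is a 3.49-fold lower level. All 4 ANXA3 probes were called, between -1.80 and -1.49. The ANXA3 signals and ratios are those of the probe with the smallest p. The probe printed above shares 20 bases with the next one along. By coordinates its other end, from 71766787 to 71766806, also overlaps the probe whose values are given, so these are not separate measurements. Among the other 14 measured annexins and S100 calcium-binding proteins none was called. The annexin ANXA2 was at +0.18 ± 0.13 and ANXA7 at +0.28 ± 0.12.

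OTC, ornithine transcarbamylase, carries out the step of the urea cycle that makes citrulline in mitochondria. Its control signal was 13.26, 13.62 and 13.12 and its frozen signal 12.35, 12.04 and 11.74, again with no overlap between the groups. OTC fell by 1.34 (SE 0.17, adjusted p = 0.0423), with ratios of -0.91, -1.57 and -1.38, and its 3 probes, which share 15 bases, ran from -1.34 to -1.26. Of 13 measured genes of the urea cycle and amino acid metabolism OTC alone was called, and 4 were above 0. Their median was -0.26 over the fitted values and -0.39, -0.51 and -0.08 by array, beside -0.003 for all genes tested. ALDH18A1, the enzyme that opens proline and ornithine synthesis, was at -0.70 ± 0.10 (adjusted p = 0.0648). CPS1, which feeds ammonia into the cycle, was at -1.11 ± 0.36 with ratios of -1.32, -1.31 and -0.89; it was named after its values were seen.

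NID1, RTKN2 and ESM1 also fell. Nidogen 1, which links laminin to collagen IV in basement membranes, fell by 1.23 (SE 0.15) at the probe at chr16:32068349-32068408, with ratios of -0.93, -1.42 and -1.21. Its other probe, at a start of 32233937, was at -0.56 and was not called. By the files' coordinates the called probe lies on the minus strand and the other on the plus strand. Which of these probes reads the NID1 transcript was not tested. RTKN2, a member of the rhotekin family, fell by 1.097 (SE 0.11) at its single probe, chr18:23963143-23963202. Control embryos read 10.33, 10.11 and 10.25 against 9.29, 9.15 and 8.94 in frozen embryos, with no overlap. ESM1, or endocan, a proteoglycan secreted by endothelium and other epithelia, was called on all 5 of its probes, between -0.99 and -0.85. Those probes start within 5 bases of each other on chr11 and are 1 measurement. Each of these 3 genes had an adjusted p of 0.0423.

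MRPS15, a subunit of the small mitochondrial ribosome, fell on all 5 probes, between -1.003 and -0.93. Control signals were 11.34, 11.19 and 10.995 and its frozen signal 10.64, 9.83 and 10.40, with no overlap. The other 15 measured mitochondrial ribosomal proteins were not called, and the list's median was -0.02. MRPS10 was at -0.36 ± 0.12 and MRPL44 at +0.32 ± 0.14, so that the difference at MRPS15 stood among members on both sides of 0. In the respiratory chain 0 of 20 genes were called and the median was +0.05.

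APOA2, an apolipoprotein of high-density lipoprotein, fell by 0.95 (SE 0.10, adjusted p = 0.0423). Its control signal was 9.03, 9.19 and 9.22 and its frozen signal 7.87, 8.40 and 8.11, so the groups did not overlap. All 5 probes were called, at -0.92 or lower, and share 56 of their 60 bases. APOA2 stood among a larger set of serum proteins with values of the same sign. Of 14 measured serum and lipid transport genes 1 was above 0, and 11 were below 0 on all 3 arrays, a pattern found in 15.8% of all genes tested. The list's median was -0.67, and -0.78, -0.74 and -0.74 on arrays 1, 2 and 3. APOA1, the main protein of high-density lipoprotein, was at -1.38, -1.09 and -1.14 on the arrays, with a fitted value of -1.13 ± 0.34 (adjusted p = 0.223). The retinol carrier RBP4 was at -1.25 ± 0.35, the iron carrier transferrin, TF, at -1.20 ± 0.25 and APOB, the scaffold of low-density lipoprotein, at -0.82 ± 0.15 (adjusted p = 0.110). Their SEs are wider than that of APOA2, and none of these 4 passed.

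The endoderm and yolk sac list, which shares several of these genes, had a median of -0.62, with -0.87, -0.64 and -0.45 by array, and 2 of 18 genes above 0. APOA2 and NID1 were called lower and no member was called higher. DAB2, an endocytic adaptor of endoderm and trophectoderm, was the member farthest above 0, at +1.12, +0.55 and +0.21 on the arrays. The pooled signal of the hypoblast and yolk sac markers was 10.96, 10.62 and 10.23 in the control channels and 10.01, 9.83 and 9.51 in the frozen channels. It is mostly APOA1, which alone read 10.655, 10.145 and 9.63 in the control channels. GATA4 was at -0.23 and AFP at +0.14. The pooled signal of the epiblast markers POU5F1 and DNMT3B was also lower on each array. It was 13.80, 13.70 and 12.83 in the control channels and 13.03, 12.91 and 12.47 in the frozen channels. It is mostly POU5F1, at 13.66, 13.50 and 12.61 in the control channels, while DNMT3B was at +0.29, -0.30 and +0.52 by array. Each sum thus largely follows 1 gene, and the part of the epiblast signal in the endoderm values was not tested. In RNA from whole embryos, fewer cells of a type and less RNA per cell cannot be told apart. Both lists were chosen with an earlier result of these data known, so their direction is not independent evidence. In vitrified embryos the median of the endoderm list was -0.59, +0.17 and +0.31 on arrays 1, 2 and 3.

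**Figure D2:**
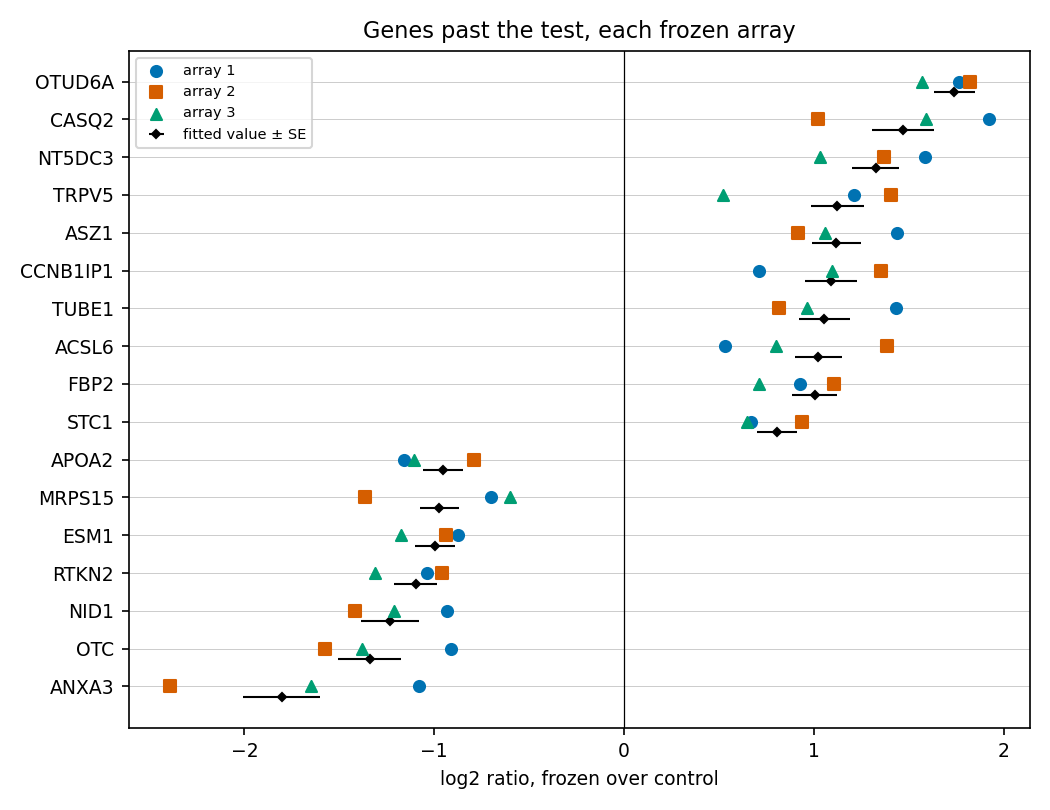
Log2 ratio of frozen over control (horizontal axis) on each of the 3 frozen arrays for 17 genes past the test, with the fitted value and its SE as a black diamond just below. Every array lies on the same side of 0 for each gene, which the choice of genes favours. ANXA3 spreads from -2.39 to -1.08, while OTUD6A lies between 1.57 and 1.82.

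OTUD6A had the largest rise among the called genes with a symbol. HBB2, which was not called, had a higher fitted value of +1.92 ± 0.67. OTUD6A encodes a deubiquitinating enzyme, which removes ubiquitin from proteins. In control channels its signal was 7.30, 6.82 and 7.54 and its frozen signal 9.07, 8.65 and 9.11. OTUD6A rose by 1.74 ± 0.11 (adjusted p = 0.00656), 3.34-fold, with ratios of 1.76, 1.82 and 1.57. It is read by 1 probe. Of the other 18 measured genes of the proteasome and of ubiquitin removal none was called; the deubiquitinating enzyme UCHL1 was at -0.53 ± 0.14 and the proteasome subunit PSMA5 at -0.35 ± 0.11.

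Genes of calcium handling were called in 1 direction, while others of that list were far below 0. CASQ2, the calcium store protein of cardiac sarcoplasmic reticulum, rose by 1.47 ± 0.16 (adjusted p = 0.0423) at chr13:48533829-48533888, with ratios of 1.92, 1.02 and 1.59. Control channels read 8.46, 8.88 and 8.63 and its frozen signal 10.38, 9.90 and 10.22; its other 2 probes, at 0.97 and 0.89, were not called. TRPV5, a calcium entry channel of transporting epithelia, rose by 1.12 ± 0.14 at chr7:9228839-9228898. Its frozen signal was steady at 11.35, 11.33 and 11.16, and the control signal was 10.14, 9.92 and 10.64, so that the ratio of 0.52 on array 3 was the smallest of 1.21, 1.41 and 0.52. Another TRPV5 probe, starting at 9206749, was at 0.40 and was not called. SLC8A1, the sodium-calcium exchanger, was at +0.89 ± 0.13 (adjusted p = 0.0648), with 0.81, 1.05 and 0.87 by array. On the other side were the junctophilin JPH1 at -0.75 ± 0.12, the troponin TNNC1 at -1.21 ± 0.24 and the calcium buffer CALB1 at -1.19 ± 0.27, the last named after its values were seen. Of 18 measured genes 2 rose, none fell past the test and 10 were above 0, with a median of +0.07. STC1, stanniocalcin 1, a secreted regulator of calcium and phosphate, rose by 0.81 ± 0.11 (adjusted p = 0.0478), with 0.67, 0.94 and 0.65 by array.

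**Figure D3:**
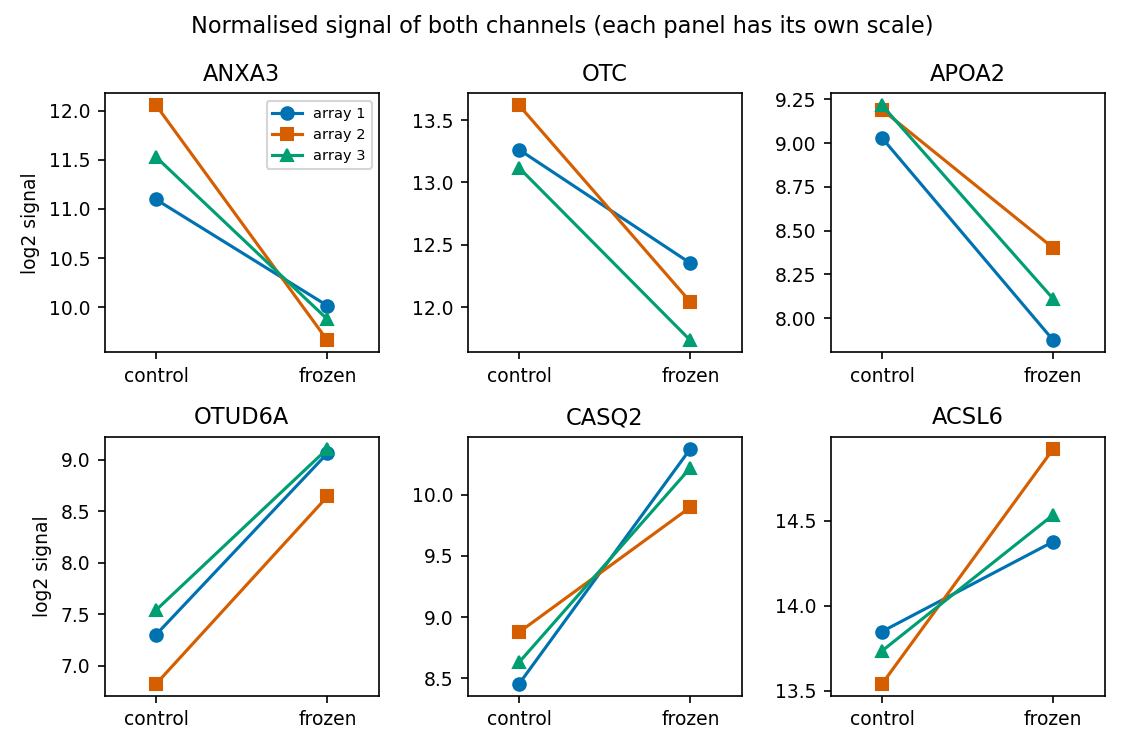
Normalised log2 signal (vertical axis, a separate scale in each panel) of the control and the frozen channel of each array for 6 called genes; a line joins the channels of 1 array. All lines fall for ANXA3, OTC and APOA2 and rise for OTUD6A, CASQ2 and ACSL6. In each panel the 3 frozen values lie on 1 side of the 3 control values, which the choice of genes favours.

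Fuel metabolism held 2 genes that rose. ACSL6, which joins coenzyme A to long-chain fatty acids so that they can be used, rose by 1.02 ± 0.12 (adjusted p = 0.0423) at chr3:15034334-15034393. Its signal in controls was 13.85, 13.54 and 13.74 and its frozen signal 14.38, 14.92 and 14.54, and 4 of its 5 probes were called, all 5 lying between 0.91 and 1.02. Of 18 measured genes of fatty acid activation and oxidation 16 were above 0, and 11 were above 0 on all 3 arrays, as were 15.4% of all genes tested. Their median was +0.25, with 0.35, 0.20 and 0.32 by array, and -0.05 over the fitted values of vitrified embryos. Beside ACSL6, ANGPTL4, a secreted inhibitor of lipoprotein lipase, was at +0.90 ± 0.13 (adjusted p = 0.0574) and HADHA, of the mitochondrial trifunctional protein, at +0.52 ± 0.11, the last named after its values were seen. ACSL5, a second acyl-CoA synthetase, was the exception at -1.05, -1.07 and -0.98 by array (fitted -1.02 ± 0.19, adjusted p = 0.110).

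FBP2, the muscle-type fructose bisphosphatase of gluconeogenesis, rose by 1.00 ± 0.12 (adjusted p = 0.0423) at its 1 probe, chr1:73562602-73562661, with ratios of 0.93, 1.11 and 0.71. Signals in controls were 11.07, 11.20 and 11.24 and its frozen signal 11.99, 12.31 and 11.95. The other 17 measured genes of glycolysis and gluconeogenesis were not called, 5 of the 18 were above 0, and the median was -0.10. The lactate dehydrogenase LDHB was at -0.47 ± 0.12 and the aldolase ALDOC at -0.51 ± 0.16. Sterol and fatty acid synthesis had no call among 13 genes and a median of +0.09. Its lowest p values belonged to the cholesterol carrier STARD4 at -0.60 ± 0.13, the sterol demethylase CYP51A1 at +0.57 ± 0.14 and the desaturase FADS2 at +0.37 ± 0.14.

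Genes best known from germ cells and centrioles also rose. ASZ1, a germ cell protein of the pathway that silences transposons, rose by 1.12 ± 0.13, with control signals of 8.44, 8.72 and 8.62 and frozen signals of 9.87, 9.64 and 9.67; its other probe, at 1.05, was not called. CCNB1IP1, a ubiquitin ligase needed for meiotic crossovers, rose by 1.09 ± 0.14 at 1 probe, chr17:40776553-40776612, and its other 2 probes were at 0.51 and 0.49. TUBE1, the epsilon tubulin of centrioles, rose by 1.05 ± 0.13, its 3 probes lying between 1.01 and 1.05 with 1 of them past the test. All 3 genes had an adjusted p of 0.0423 at that probe. Of 12 measured germ cell and meiosis genes 2 rose, and the synaptonemal protein SYCP2 was at -0.24 ± 0.11. Among 11 tubulin and centriole genes TUBE1 alone was called. NT5DC3, a protein with a nucleotidase domain, rose by 1.32 ± 0.12 at its 1 probe (adjusted p = 0.0423), with ratios of 1.59, 1.37 and 1.03; the other 17 genes of nucleotide metabolism were not called, and PNP, of purine salvage, was at -0.50 ± 0.14.

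Of the called probes 18 carry no gene symbol, 12 higher and 6 lower. A_04_P034922, on the array for the transcript ENSOCUT00000003799, showed the largest change of any called probe. It rose by 2.22 ± 0.15 (adjusted p = 0.00678), with control signals of 9.81, 9.32 and 9.54 and frozen signals of 11.65, 11.99 and 11.49. A_04_P006396, chr12:26552410-26552469, was not well above background in any of the 3 control channels. Its frozen mean of 8.32 stood 2.96-fold above a bound of 6.75, and its measured control mean was 6.74. The fitted value, which includes the dye term, was +1.56 ± 0.10 (2.95-fold, adjusted p = 0.00656). The 2.96-fold is thus a distance of plain means and not a lower limit of the fitted change. The bound takes, on each array, the higher of the probe's own control signal and the lowest control signal that was well above background. A_04_P046082, chr14:91872228-91872287, rose by 1.11 ± 0.12, with ratios of 0.50, 1.57 and 0.91.

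A group of 7 called probes lay within 1 stretch of chromosome 9, between 36528078 and 36528891. The 5 of the transcript ENSOCUT00000008180, of which A_04_P076262 is printed above, share 56 of 60 bases and rose between 0.79 and 0.88. The 2 others, from an expressed sequence tag, start at 36528792 and 36528832 and rose by 0.82 and 0.80. Their control signals were 12.16, 12.34 and 12.31 at the first and the frozen signals 13.02, 13.21 and 13.03. Between both sets lie 5 probes that start from 36528321 to 36528351, and these were at 0.02 to 0.48 and were not called. In vitrified embryos the 7 probes were between -0.27 and -0.15, and the difference of vitrified minus frozen lay between -1.13 and -0.97 (adjusted p = 0.223 for each).

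On chromosome 8 a pair of called probes, A_04_P076768 and A_04_P076769, belongs to a set of 5 overlapping probes of the transcript ENSOCUT00000008157. Ordered by start from 32512960 to 32512967 the set read 0.26, 0.52, 0.77, 0.82 and -0.04. All 5 share 53 bases, so probes that differ by a few bases at their ends differed in the call. Those at 0.26 and -0.04 also had the lowest mean signals, 7.09 and 7.05, against 7.83 and 7.86 for the called pair.

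Among unnamed probes that fell, A_04_P071512, chr18:64122783-64122842, fell by 1.76 ± 0.19, with ratios of -0.44, -2.69 and -1.41. Its transcript has 6 tested probes, between -1.76 and -0.84, of which it alone was called. A_04_P102787, printed above, fell by 1.49 ± 0.19, with -1.41, -2.06 and -0.80 by array; the second probe of its transcript, starting at 99901799, was at -1.22. A_04_P031967 on chromosome 9 fell by 0.94 and A_04_P099843 by 0.90. Finally A_04_P011687 and A_04_P011686, on chromosome 17, fell by 0.79 and 0.77, in a set of 4 probes of 1 expressed sequence tag between -0.79 and -0.69. Probes of RAB11A, a GTPase of recycling endosomes, lie 742 to 1403 bases from the first of them and were at -0.27 to -0.08.

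Below the threshold, 12 genes in each direction had the smallest unadjusted p values with the same sign on all 3 arrays. Those named here are given as values only, and the 24 had adjusted p values from 0.0532 to 0.0838. Below 0 were HESX1, a repressor of the early forebrain and of the epiblast, at -1.20 ± 0.18, with -1.49, -0.88 and -1.37 by array. The endoplasmic reticulum calcium binder RCN1 was at -0.84, the hyaluronan-binding TNFAIP6 at -0.82, SYPL2 at -0.77, JPH1 at -0.75 and SNAI3 at -0.73. FMO1, ALDH18A1, the deubiquitinating enzyme USP44, the kinetochore protein NUF2 and the transcription factor POU2F1 lay between -0.70 and -0.64. NUF2 was at -0.68, -0.60 and -0.64 by array. Other probes of JPH1 and FMO1 lay nearer to 0: the 7 JPH1 probes ran from -0.79 to -0.08 and the 6 FMO1 probes from -0.73 to -0.09.

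Above 0 were ANGPTL4 at +0.90, SLC8A1 at +0.89, the DNA polymerase POLI, which copies past lesions, at +0.86, and CREG1, C15H10orf90 and SAA3 at +0.80, +0.80 and +0.74. SAA3, an acute-phase serum amyloid, was not well above background in any control channel. Its frozen mean of 7.18 stood 1.49-fold above a bound of 6.61, taken as for A_04_P006396. This too is a distance of plain means and not a lower limit of the fitted change. The fitted value had an adjusted p of 0.0648. DEPDC7 was at +0.73, SNX19 at +0.72, the kinase MAP3K8 at +0.70, NCKAP1L at +0.64, TMEM70, which helps assemble ATP synthase, at +0.64 and ARHGAP25 at +0.60. The value of TMEM70 is that of 1 of 9 probes, which ran from 0.09 to 0.64, and the 4 probes of DEPDC7 and the 6 of SLC8A1 ran from 0.33 to 0.73 and from 0.39 to 0.89. NCKAP1L and ARHGAP25 are known from blood cells. The control signal of NCKAP1L was well above background on 1 of 3 arrays.

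Several genes had larger values than most called genes with a wider spread; they were named after their values were seen. TFPI, the tissue factor pathway inhibitor of blood clotting, was at -0.93, -3.12 and -2.68 on arrays 1, 2 and 3, with a fitted value of -2.29 ± 0.50 (adjusted p = 0.137), and its 4 probes lay between -2.33 and -2.27. ITM2A, a membrane protein of differentiating cells, was at -2.13, -2.60 and -1.19 (fitted -1.99 ± 0.46, adjusted p = 0.152, 6 probes). SLC3A1, a subunit of a transporter for cystine and basic amino acids, was at -1.92, -1.81 and -1.51 (fitted -1.72 ± 0.38, adjusted p = 0.138). An unnamed transcript, ENSOCUT00000008701 on chromosome 18, had 5 overlapping probes between 1.60 and 1.69 with adjusted p values from 0.0737 to 0.0838. By their brightest probes 28 genes were at least 2-fold lower and 14 at least 2-fold higher.

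**Figure D4:**
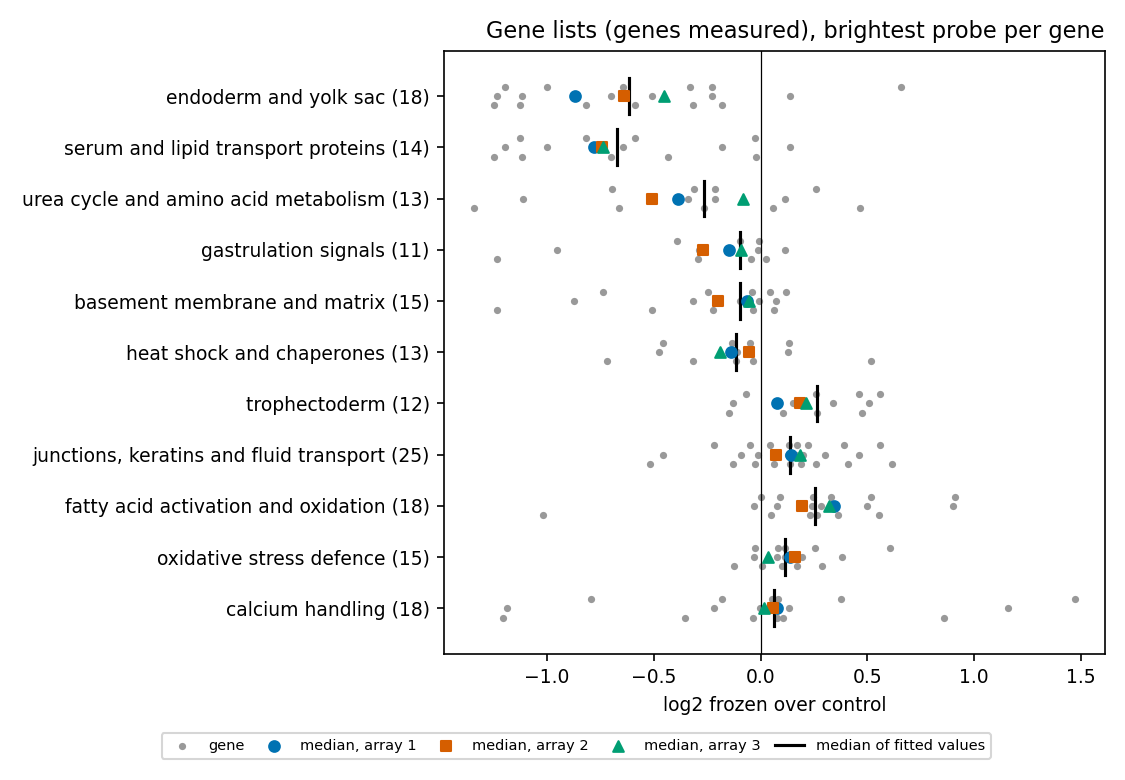
Log2 ratio of frozen over control (horizontal axis) for the genes of 11 lists, with 1 grey point per gene at its brightest probe, the median of fitted values as a black bar and the median on each array as coloured marks. The 3 array medians of the endoderm and serum protein lists lie between -0.87 and -0.45, and those of the fatty acid list between 0.20 and 0.35.

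Trophectoderm genes lay mostly above 0: 9 of 12 measured genes, with a median of +0.26 and 0.08, 0.19 and 0.21 by array, and none was called. The transcription factors GATA2, GATA3 and TFAP2C, which specify that layer, were at +0.56 ± 0.14, +0.46 ± 0.14 and +0.27 ± 0.10. The summed signal of the trophectoderm markers was at 15.23, 15.18 and 14.95 in the control channels and 15.21, 15.24 and 15.08 in the frozen channels, which overlap. Of 25 genes of junctions, keratins and fluid transport 17 were above 0 and none was called. The desmosomal cadherin DSG2 was at +0.46 ± 0.09, the tight junction protein CLDN3 at +0.61 ± 0.16 and the gap junction protein GJA1 at -0.52 ± 0.12.

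In the epiblast list 5 of 10 genes were above 0, no gene was called and the median was -0.03. POU5F1, the core factor of pluripotency, was at -0.94, -0.88 and -0.56 by array (fitted -0.82 ± 0.22, adjusted p = 0.191). OTX2, a factor of primed epiblast, was at -0.51 ± 0.13, TBX3 at -0.61 ± 0.16 and ETV4 at -0.40 ± 0.10; ETV4 and TBX3 were above 0 on array 1. Gastrulation signals had no call among 11 genes, 2 above 0 and a median of -0.10. DKK1, a Wnt antagonist, was at -1.60, -1.24 and -1.08 by array (fitted -1.23 ± 0.32, adjusted p = 0.179), BMP2 at -0.96 ± 0.20 and the nodal and BMP antagonist CER1 at -0.39 ± 0.10. In the Wnt and Notch list, which also holds DKK1, 0 of 16 were called, and RBPJ, through which Notch acts on its target genes, was at -0.57 ± 0.16.

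Among the matrix and growth factor lists only NID1 and ESM1 were called. Of 15 basement membrane and matrix genes NID1 and ESM1 fell, 4 were above 0 and the median was -0.10; fibronectin, FN1, was at -0.74 ± 0.29. Of 11 fibroblast and vessel genes ESM1 fell, VWF was at -0.60 ± 0.17 and TAGLN, an actin-binding protein of smooth muscle, at -0.62 ± 0.13. The summed signal of the vessel and fibroblast markers was 11.82, 11.38 and 11.14 in controls and 11.66, 10.56 and 10.65 in frozen embryos, and its part in these values was not tested. Among 11 genes of IGF signalling none was called. IGF1 was at -1.22, -1.10 and -0.88 by array (fitted -1.06 ± 0.22), and of its binding proteins IGFBP6 was at -0.70 ± 0.16 and IGFBP5 at +0.67 ± 0.10 (adjusted p = 0.0736). FGF signalling had no call among 19, with FGF2 at -0.39 ± 0.13.

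Genes of stress responses held no call. With 0.221% of all genes tested called, a list of this size would most often hold none. The same applies to the other lists without a call. Of 13 heat shock proteins and chaperones 3 were above 0 and the median was -0.12, with HSPH1 at -0.46 ± 0.12, STIP1 at -0.47 ± 0.14 and the chaperonin CCT2 at -0.72 ± 0.21. The endoplasmic reticulum chaperone HSPA5 was at -0.26, +0.15 and +0.66 by array, on both sides of 0, and the median of the 15 genes of endoplasmic reticulum stress was +0.06. Of 15 genes of oxidative stress defence 12 were above 0, with a median of +0.12. KEAP1, the sensor that holds back NRF2, was at +0.61 ± 0.15, NQO1, well above background in 1 of 3 control channels, at +0.38 ± 0.16 and GCLC, of glutathione synthesis, at +0.26 ± 0.11. In the cold and osmotic list 0 of 14 were called; the aquaglyceroporin AQP7 was at -0.56 ± 0.15, the water channel AQP5 at +0.64 ± 0.28 and the uncoupling protein UCP2 at +0.67 ± 0.18. CIRBP and RBM3, cold-induced RNA-binding proteins, were not analysed here.

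Apoptosis and p53 genes had a median of -0.08 over 14 with no call; the caspase inhibitor XIAP was at -0.75 ± 0.17, BAX at -0.59 ± 0.18 and BCL2L1 at +0.42 ± 0.14. DNA repair, with 16 genes, had a median of -0.02, with 5 above 0 and 11 below. The abasic site nuclease APEX1 was at +0.41 ± 0.11. XRCC5 was at +0.35, -1.09 and -0.71 by array (fitted -0.59 ± 0.20). The 27 cell cycle genes had a median of +0.04. Chromatin and imprinting genes had no call among 14, with RBBP7, a histone-binding subunit of chromatin complexes, at +0.55 ± 0.09 (adjusted p = 0.0844) and the imprinted SNRPN at -0.45 ± 0.13. Serine, glycine and folate metabolism had none among 16; PSAT1 was at -0.25 ± 0.23, PHGDH at -0.30 ± 0.16 and CBS, of transsulfuration, at -0.84 ± 0.20. The remaining lists, among them cytosolic ribosome, interferon and MHC, and autophagy, had medians between -0.05 and +0.05; muscle genes held CASQ2 and the list of actin regulators held RTKN2 as their only calls.

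Per the labels, same-numbered vitrified and frozen arrays carry the same control source name, and values are set side by side. Whether they shared a control extract is not stated. In vitrified embryos ANXA3 was at -0.61 ± 0.20, OTC at -0.74 ± 0.17, CASQ2 at +0.74 ± 0.16 and OTUD6A at +1.46 ± 0.11 (adjusted p = 0.0269). APOA2 was at +0.15 ± 0.10 and TRPV5 at -0.28 ± 0.14, on the other side of 0 from the frozen embryos. The difference of vitrified minus frozen was tested in the same fit, and 0 of 30761 probes passed (0%), with 2320 at an unadjusted p under 0.05. The smallest adjusted p was 0.223, which APOA2 (+1.102 ± 0.14) and TRPV5 (-1.40 ± 0.19) reached. The difference was +1.20 ± 0.28 for ANXA3 and -0.28 ± 0.15 for OTUD6A, so the data do not show any gene to change in frozen embryos alone.

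**Figure D5:**
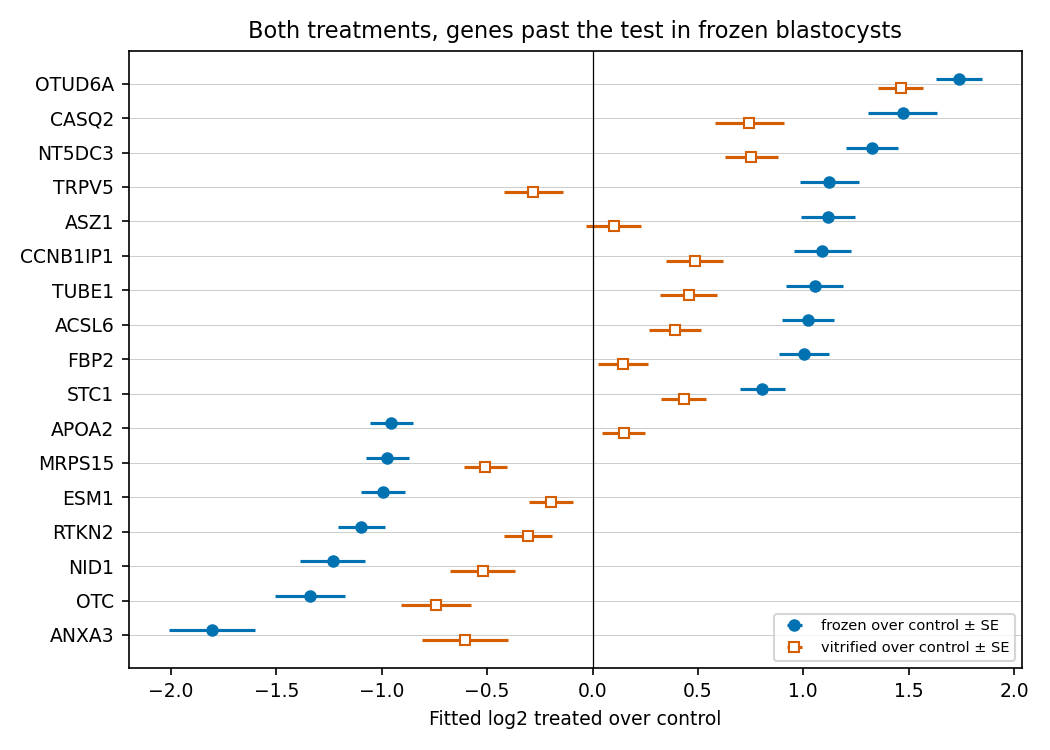
Fitted log2 ratio of treated over control with its SE (horizontal axis) for frozen (filled circles) and vitrified embryos (open squares) at the 17 genes past the test in frozen embryos. The frozen value lies farther from 0 for each gene, which the choice of genes favours, and TRPV5 and APOA2 lie on opposite sides of 0.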

How the data were processed

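RNA was measured on 6 two-colour Agilent arrays, 3 for frozen and 3 for vitrified embryos, each against an untreated control. The authors deposited scanner output: per the file headers, each spot has an intensity in red and in green, the mean over its pixels, beside its median background, from Agilent Feature Extraction 10.10.1.1 per the submitters' processing notes. An alternative used the log10 ratio that the authors deposited, which per the file headers is red over green after the scanner program's own background and dye steps.

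From the intensities, background was corrected with limma 3.58.1 (R 4.3.3; normexp, offset 50), loess was run within each array, giving control spots a weight of 0, spots flagged as uneven or as outliers were left out, and repeated spots were averaged. A probe entered the test if 3 or more of its 12 channel measurements stood well above background, which kept 30761 of 43603. Between 49.8% and 70.2% of spots in each channel of the frozen arrays were well above background, and 9 at most were saturated; the number of arrays limits the precision. Of the tested probes 11 lacked a value on a frozen array, and none of the called ones did.

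Log2 ratios, turned to treated over control, were fitted with a coefficient per treatment and a dye term over all 6 arrays (3 residual degrees of freedom, eBayes). An adjusted p comes from limma's moderated test with Benjamini-Hochberg adjustment across every tested probe; SE is that of the fit and n = 3 arrays. An exact test of single values was not run. Channel signals are log2 values after Aquantile scaling. The fit was tested on simulated data.

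A symbol was given to 21362 probes by matching the identifiers in the files to a RefSeq table of assembly mOryCun1.1, which gave names only; 213 matched several genes and 20710 none. Probe locations in exons or introns were not analysed here.

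The members, the 39 gene lists and the naming rule were chosen with earlier results of these data known. The rule takes genes with a called probe, the 12 next by unadjusted p per direction with 1 sign on all frozen arrays, up to 3 members per list, 17 genes by name, and up to 4 unnamed called probes per direction with called neighbours. A gene's value is its called probe with the smallest p, or else its brightest. For the next 12 it is the probe with the smallest p. Lists use the brightest probe throughout. Some of the genes so chosen are not reported here.

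Same-numbered arrays carry the same control source name per the labels, and whether this means a shared extract is not stated. The correlations of their deviations were 0.0175, 0.594 and 0.166 for replicates 1, 2 and 3. Labels call the replicates biological. Alternatives covered background, normalisation, filters, flags, dye, slide, spread, replicate block, thresholds and leaving out each array.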

Additional observations from a re-analysis of the deposited data

Results flagged for a closer look

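Of 149 genes of the naming rule, 10 had all frozen arrays on 1 side of 0 and all vitrified arrays on the other. The same held for the medians of 4 gene lists. The rule took some of the genes for having 1 sign on all frozen arrays, which favours such a count. It was not made over all genes tested, so the 10 cannot be set against a share of all genes. For the genes the difference was also tested in the fit, and none passed. The differences of vitrified minus frozen on the log2 scale were -1.405 for TRPV5 (adjusted p = 0.223), -1.102 for ANGPTL4 (adjusted p = 0.283), -1.004 for HADHA (adjusted p = 0.264), -0.82 for RBBP7 (adjusted p = 0.283), -0.81 for CLDN3 (adjusted p = 0.593) and -0.45 for NT5C2 (adjusted p = 0.593). They were +1.77 for PSAT1 (adjusted p = 0.408), +1.56 for UBE2S (adjusted p = 0.469), +0.81 for USP44 (adjusted p = 0.289) and +0.65 for NFKBIA (adjusted p = 0.514). UBE2S, a ubiquitin-conjugating enzyme of mitosis, was at -0.36, -0.32 and -1.66 on the frozen arrays and at +0.96, +0.89 and +0.51 on the vitrified ones.

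For the lists the difference was not tested. The fatty acid activation and oxidation list had a frozen median of 0.25 and vitrified array medians of -0.07, -0.10 and -0.11. The calcium handling list was at 0.07 in frozen embryos, the basement membrane and matrix list at -0.10 and the fibroblast and vessel list at -0.05, with vitrified array medians of the opposite sign throughout.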

How the results depend on the processing

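Probes called on these arrays are favoured to keep their direction when the same arrays are refitted, so kept directions are no further support. The 17 named genes past the test kept their direction in all 306 refits that gave a value, and all 57 called probes kept theirs in every setting that fitted them. The calls did not: 1 probe passed with the deposited log ratio (0 of the 18 genes), 33 with median centring (11 genes), 8 without the dye term (6 genes), 12 on the frozen arrays alone without a dye term (1 gene) and 47 there with one (5 genes), of which 12 were among the 57. With slide as a covariate 0 passed (0 genes). At an adjusted p of 0.1 it was 187 probes, and 27 at 2-fold or more. Leaving out 1 array at a time gave 0 to 513 probes and 0 to 18 genes, with 0 genes whenever a frozen array was left out. Other background, filter, flag and spread settings gave 53 to 62. The replicate number as a random block gave 61 probes, its correlation being -0.103, and changed no call of a gene. The cause of these losses was not tested. Leaving out 1 array, HSPA5 ran from -0.051 (without frozen replicate 3) to 0.406, PHGDH from -0.476 to 0.094 (without frozen replicate 2) and WFDC2 from -0.004 (without frozen replicate 1) to 0.583, each with a change of sign. Of 127 genes followed 36 moved by over 1.5 times when 1 array was left out, none of them called; values nearest to 0 were -0.617 for CPS1, -0.407 for CBS, -0.242 for AQP7, -0.139 for STIP1 and -0.228 for UCHL1. Less steady list medians were those of basement membrane (-0.41 to -0.05), fibroblast and vessel (-0.61 to -0.05) and gastrulation genes (-0.34 to -0.07). Others ran from -0.77 to -0.43 for endoderm, -0.97 to -0.52 for serum proteins, 0.13 to 0.35 for trophectoderm and 0.22 to 0.30 for fatty acids.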
